A study of Mus musculus with 20 samples.

Results

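Haem, the iron-holding ring that carries oxygen in haemoglobin, is built by a short chain of enzymes that starts and ends in the mitochondrion and passes through the cytosol between. In animals most haem is made in red cell precursors, and the spleen of a young mouse still holds many of them beside its lymphocytes and macrophages. The genes described here are 7 enzymes of that chain, Alas2, Alad, Uros, Urod, Cpox, Ppox and Fech, taken by gene name from a table of 54532 genes. All 7 were among the 18362 genes that passed the filter on low counts.

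RNA of whole spleens from mice aged 4 weeks was sequenced in 20 libraries. Mice bred on a gluten-free diet gave 9 libraries, 4 with plain number IDs (7 to 10) and 5 with IDs that begin with S (S1, S3, S5, S6 and S8), and control mice gave 11, 8 with plain IDs (1 to 8) and 3 with S IDs (S1, S2 and S6). The labels name no strain, sex or litter, do not say what S stands for or whether every ID is its own mouse, so p-values measure the spread between these libraries, which may be technical. Since the form of the ID may mark a cohort, the diets were compared within each form, over both, and as the difference between the forms. Library totals ran from 13626021 to 24268237 counts. No gene of the B cell, T cell or red pulp macrophage marker lists was at 0 in a whole group.

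In GRCm38 Alas2 (ENSMUSG00000025270) lies on chromosome X, 150547375 to 150570638, and Alad (ENSMUSG00000028393) on chromosome 4, 62509169 to 62519918. Uros (ENSMUSG00000030979) lies on chromosome 7, 133686243 to 133710072, and Urod (ENSMUSG00000028684) on chromosome 4, 116989965 to 116994413. Cpox (ENSMUSG00000022742) lies on chromosome 16, 58670292 to 58717636, Ppox (ENSMUSG00000062729) on chromosome 1, 171275990 to 171281186, and Fech (ENSMUSG00000024588) on chromosome 18, 64456550 to 64489066.

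The chain runs in this order. Alas2, the red cell form of aminolevulinate synthase, makes the first committed product from glycine and succinyl-CoA in the mitochondrion. Alad joins a pair of those molecules in the cytosol, Uros closes the ring, and Urod trims its side chains. Cpox and Ppox oxidise the ring on its return to the mitochondrion, and Fech, ferrochelatase, inserts the iron. Genes on the opposite strand overlap 4 of them: Apex2 over Alas2, Bccip at Uros, B4galt3 at Ppox and Gpr15 at Cpox. Bccip had 28.7% as many counts as Uros and B4galt3 5.88% as many as Ppox, and the strand setting of the counting is not stated, so Uros and Ppox values are less certain than the others.

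In red cell precursors Alas2 and other genes of the pathway are known targets of GATA1, whose binding letters include AGATAA and TGATAA. Other letters that GATA1 may bind were not searched. The windows of 250 bases before the RefSeq start sites (GRCm38.p6) were searched on both strands for these letters, because the 7 genes moved together. Of the 7, 6 were searched and Fech was not analysed here. Those of Alas2 and Cpox are shown as the ones among the 6 with a match outside annotated exons. Both matches start 86 bases before the start site and read as the reverse complement, and capitals mark them. The Alas2 stretch is chrX:150547167-150547374, plus strand, stopping where annotated exon bases begin, and the Cpox stretch is chr16:58669958-58670207, plus strand.
Alas2: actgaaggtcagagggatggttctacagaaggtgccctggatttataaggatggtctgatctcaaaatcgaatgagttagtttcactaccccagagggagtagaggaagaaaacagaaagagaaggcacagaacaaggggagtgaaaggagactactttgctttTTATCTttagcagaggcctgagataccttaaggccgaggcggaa
Cpox: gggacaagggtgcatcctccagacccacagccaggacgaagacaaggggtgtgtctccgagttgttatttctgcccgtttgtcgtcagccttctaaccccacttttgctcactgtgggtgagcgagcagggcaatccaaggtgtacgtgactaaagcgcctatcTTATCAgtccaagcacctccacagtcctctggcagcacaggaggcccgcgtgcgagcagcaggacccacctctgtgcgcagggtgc
Of 32851 windows of the same length 16.6% hold either form, 9.99% AGATAA and 7.94% TGATAA. The second of 2 listed Uros starts also has TGATAA, 68 bases before it and inside annotated exon bases of another Uros transcript, as tccctcagccTTATCAgtgacagagg (chr7:133702553-133702578, minus strand). Alad, Urod and Ppox have neither form in this window, which says nothing of sites elsewhere or of other GATA1 letters. The same windows were also searched for the CACCC box, CCACCC, which 28.1% of the 32851 windows hold. Alas2 had 3 matches to it, all inside annotated exon bases, and Alad, Uros, Urod, Cpox and Ppox had none. A match is a description of letters and not a binding site.

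With plain IDs, RNA of all 7 enzymes fell in gluten-free spleens to between 0.380 and 0.490 of the control level. All 7 were called lower, where 22.1% of all tested genes were (edgeR's quasi-likelihood test, Benjamini-Hochberg adjusted p under 0.05 over all tested genes). Each gluten-free library lay below each control library for all 7, which held for 14.2% of tested genes. TMM scaling gave 4050 genes lower and 3216 higher in all, and library total scaling 2047 lower and 6519 higher, with the 7 enzymes called lower under both. Values are CPM, counts scaled to library size, with TMM scaling. In bulk spleen RNA fewer cells of a type and less RNA per cell cannot be told apart.

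Alas2, the red cell gate to the pathway, had 654, 1204, 1024.5 and 859 CPM in gluten-free libraries 7, 8, 9 and 10, against a lowest of 1278, a median of 2040.2 and a highest of 2278 CPM in the 8 control libraries. The highest gluten-free library stayed under the lowest control library, control 8. The log2 fold change was -1.03 ± 0.17 (SE, adjusted p = 0.0002327 in edgeR), the smallest fall of the 7.

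Alad had 300.3, 486, 457 and 399.7 CPM in the gluten-free libraries, against 529, 1025 and 1232.5 CPM (lowest, median, highest) in control. The groups were apart, with control 8 again the nearest control library. It fell, at -1.23 ± 0.20 on the log2 scale (SE; edgeR adjusted p = 0.0001681). Uros, the ring-closing enzyme and the least abundant of the 7 per length, had 89.3, 113, 107 and 92.4 CPM in the gluten-free libraries, against 157, 246 and 311 CPM in control. The gluten-free libraries were close together, the highest being 1.27 times the lowest, against 1.98 times in control. It fell, at -1.31 ± 0.15 on the log2 scale (SE; edgeR adjusted p = 1.861e-05). Urod had 156, 267, 251 and 226 CPM in the gluten-free libraries, against 347, 575 and 649 CPM in control, at -1.30 ± 0.17 on the log2 scale (SE; edgeR adjusted p = 3.886e-05). The fold changes of all 3 cytosolic enzymes lay below that of Alas2, and these differences between enzymes were not tested.

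Cpox had the largest fall of the 7. It had 219.6, 288, 285 and 268 CPM in the gluten-free libraries, against 434, 738 and 859 CPM in control, -1.40 ± 0.17 on the log2 scale (SE; edgeR adjusted p = 2.456e-05). Ppox, which makes the final ring before iron goes in, had 141, 193, 183 and 179.95 CPM in the gluten-free libraries, against 255, 408 and 446 CPM in control, -1.16 ± 0.14 on the log2 scale (SE; edgeR adjusted p = 2.104e-05). Fech had 383, 663, 579.6 and 531 CPM in the gluten-free libraries, against 882, 1319 and 1458 CPM in control, -1.23 ± 0.16 on the log2 scale (SE; edgeR adjusted p = 2.976e-05). In the gluten-free group library 7 was lowest and library 8 highest for 7 of 7 enzymes, and control 8 was lowest for 7 of 7. All 7 stayed called lower when any 1 of the 12 libraries was left out.

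**Figure D1:**
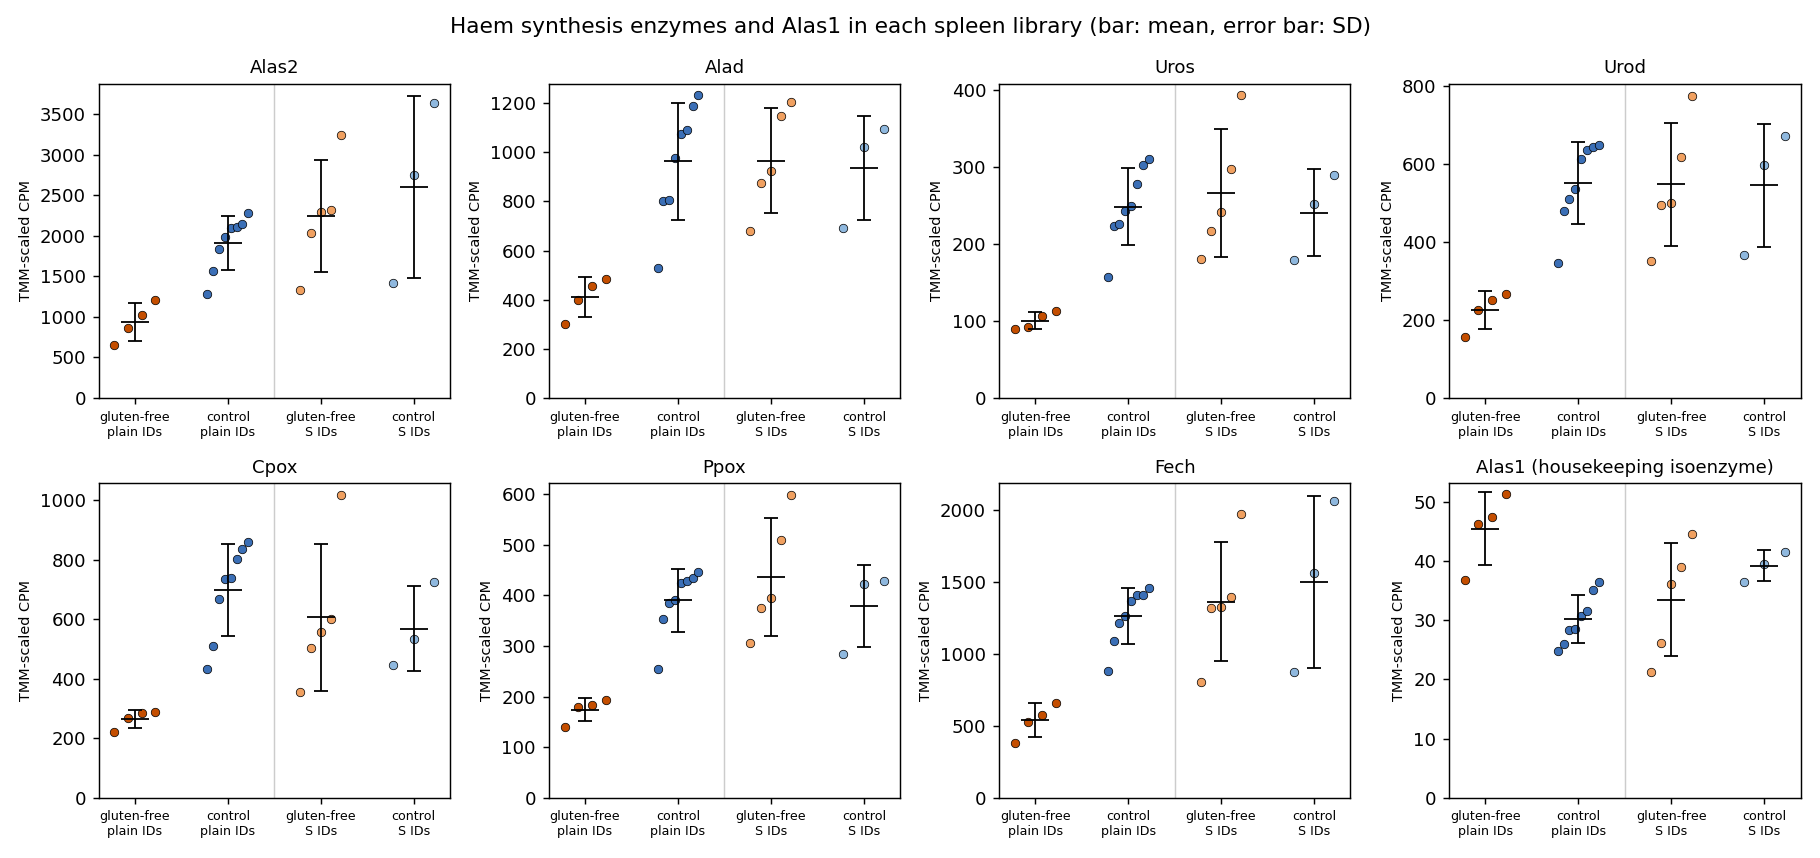
CPM (TMM-scaled, linear axis) of the 7 enzymes and Alas1 in each library, with the mean and SD of each group. In plain IDs every gluten-free library lies below every control library for the 7 enzymes and above every control library for Alas1, while the S ID groups overlap.

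With S IDs the diets were not separated for any of the 7. Alas2 had 2300.3, 2036, 2322, 1327 and 3244 CPM in gluten-free libraries S1, S3, S5, S6 and S8, against 2748, 3644 and 1415 CPM in control libraries S1, S2 and S6. Cpox had 602, 503, 558 and 357 CPM in gluten-free S1, S3, S5 and S6 and 1017.5 CPM in S8, against 535, 726.5 and 446 CPM in control. Fech had 1327, 1319, 1398, 807 and 1976 CPM in the gluten-free libraries, against 1567, 2069 and 878 CPM in control. The ranges overlapped for 7 of 7; every gluten-free S library lay below the control S libraries for 2.05% of tested genes and above them for 1.65%. The S6 library of each diet was the lowest of its group for 7 of 7 enzymes, and gluten-free S8 was the highest for 7 of 7.

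The log2 fold changes with S IDs ran from -0.21 (Alas2) to 0.21 (Ppox), and 0 of 7 were called, as were 0% of tested genes (0 genes in edgeR, 986 at an unadjusted p under 0.05, 4 in DESeq2 and 662 in limma-voom with quality weights). The 95% interval ran from -0.49 to 0.58 for Alad, from -0.47 to 0.76 for Uros, from -0.63 to 0.65 for Urod, from -0.64 to 0.82 for Cpox and from -0.36 to 0.77 for Ppox. Those of Alas2, -0.995 to 0.57, and Fech, -0.88 to 0.60, reached farthest down, the Alas2 bound lying close to its plain ID estimate of -1.03.

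The diet difference itself differed between the ID forms for 6 of 7 enzymes, where 15.4% of all tested genes were called in that direction. This difference, the log2 fold change with S IDs minus that with plain IDs, was 1.27 ± 0.32 for Alad (SE, adjusted p = 0.007588 in edgeR), 1.45 ± 0.29 for Uros, 1.30 ± 0.32 for Urod, 1.49 ± 0.34 for Cpox, 1.37 ± 0.26 for Ppox and 1.09 ± 0.34 for Fech (adjusted p = 0.02308). Alas2 had 0.82 ± 0.36 (adjusted p = 0.1036 in edgeR). Without gluten-free 7 the Fech value was 0.94 (adjusted p = 0.05353 in edgeR) and without control S6 it was 0.81 (adjusted p = 0.086), neither called, while Alas2 was called without control S2 (1.14, adjusted p = 0.03693) and without gluten-free S6 (0.96, adjusted p = 0.03817).

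Set against each other within the gluten-free diet, S ID libraries were higher than plain ID libraries for 7 of 7 enzymes, where 19.4% of tested genes were called higher. The log2 differences ran from 1.20 ± 0.25 (SE) for Cpox to 1.40 ± 0.20 for Uros, and every S library lay above every plain library for 7 of 7, which held for 18.4% of tested genes. Within control 0 of 7 differed between S and plain IDs, where 1.94% of tested genes were called. The farthest from 0 were Alas2, at 0.45 ± 0.23 (SE, adjusted p = 0.3598 in edgeR), and Cpox, at -0.30 ± 0.21 (adjusted p = 0.543). Without control S6 the Alas2 difference was 0.75 and was called (adjusted p = 0.03819 in edgeR).

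**Figure D2:**
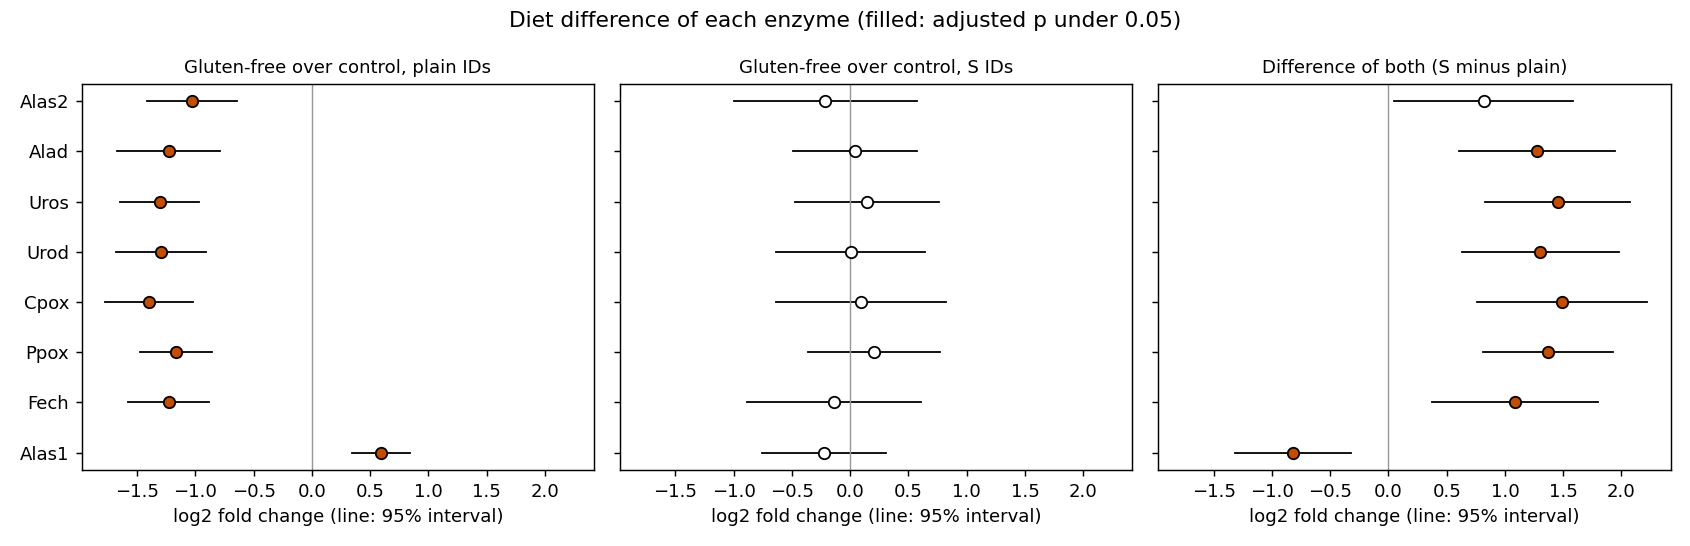
Log2 fold change of gluten-free over control for each enzyme with plain IDs and with S IDs, and the difference between the forms, on 1 shared axis (points, filled where the adjusted p was under 0.05; lines, 95% intervals). With plain IDs the 7 points lie between -1.40 and -1.03 and with S IDs between -0.21 and 0.21.

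Over both ID forms together 0 of 7 were called, as were 0% of tested genes (0 genes in edgeR, 4558 at an unadjusted p under 0.05, 1557 in DESeq2 and 9575 in limma-voom with quality weights). The 7 log2 fold changes ran from -0.60 (Ppox) to -0.79 (Cpox), with adjusted p from 0.09793 to 0.1011 in edgeR. All 7 were called lower without gluten-free S8 or without control S6, and in DESeq2 and limma-voom with quality weights on all libraries. The 20 fits that each left out 1 library called 0 to 3695 genes in all. Quality weights called 9575 of 18362 tested genes, so 7 of 7 there sets the enzymes little apart. The value over both forms is an average of plain and S IDs that differ.

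With plain IDs the 7 enzymes fell together, and the order of their mean shares was the same in both diets. The mean shares of Alas2 and Ppox were larger in gluten-free libraries and those of the others smaller, which was not tested. Per kilobase of transcript, the summed level of the 7 in gluten-free plain libraries was made up of 39.2% Alas2, 22.3% Alad, 18.8% Fech, 8.77% Urod, 4.10% Cpox, 3.96% Ppox and 2.90% Uros. In control plain libraries the shares were 35.9% Alas2, 23.0% Alad, 19.7% Fech, 9.58% Urod, 4.76% Cpox, 3.92% Ppox and 3.14% Uros. The summed CPM of the 7 meanwhile averaged 2650 ± 542 in gluten-free plain libraries and 6025 ± 1017 in control plain libraries (SD, n = 4 and 8). With S IDs it averaged 6434 ± 1877 in gluten-free and 6776 ± 2325 in control libraries (SD, n = 5 and 3).

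The order of levels per kilobase ran from Alas2 down to Uros in each group, with Alad and Fech next after Alas2, then Urod, then Cpox and Ppox. Alas2 lay above the next enzyme and Urod above the next in every library of each group, and Uros lay below the one before it in every library. Alad and Fech traded places, Alad being above Fech in 4 of 4 gluten-free plain, 4 of 5 gluten-free S and 6 of 8 control plain libraries, and Fech above Alad in 1 of 3 control S libraries though higher on average there. Cpox and Ppox also traded places, Ppox being above Cpox in 3 of 5 gluten-free S libraries. By level per kilobase averaged over all libraries, Alas2 ranked 44 and Uros 764 of 18362 tested genes.

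**Figure D3:**
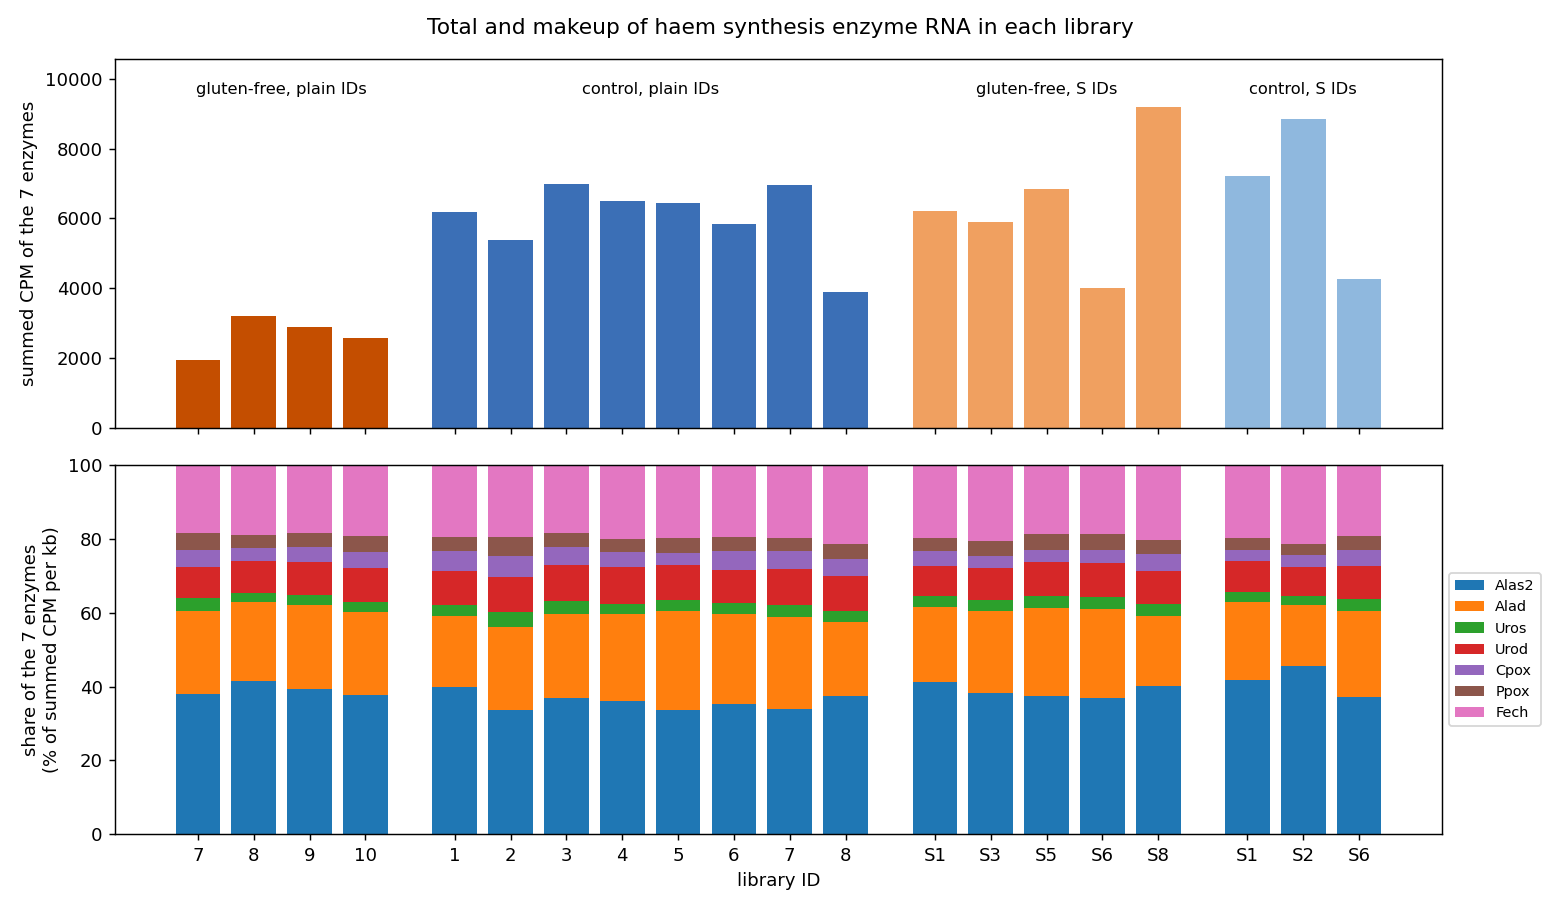
Upper panel, summed CPM of the 7 enzymes in each library; lower panel, the share of each enzyme in the summed CPM per kilobase. The sums of the 4 gluten-free plain libraries, 1943 to 3213 CPM, are the lowest of the 20. The shares vary between single libraries. That of Alas2 runs from 33.7% (control 2 and 5) to 45.7% (control S2), and that of Cpox from 2.93% (control S1) to 5.76% (control 2).

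The fall of the 7 ran beside that of other genes of red cell precursors. A list of 15 such genes (mostly membrane and membrane skeleton proteins of red cells, with Car1, Trim10 and Trim58) had 15 of 15 called lower with plain IDs, where 22.1% of all tested genes were. Its median log2 fold change was -1.37, against -1.23 for the 7 enzymes and 0.035 for all tested genes. The list was chosen with earlier results of these data known, so its count is a description. The smallest p-values were those of Car1, a carbonic anhydrase, at -1.58 ± 0.13 on the log2 scale (SE), Cldn13, a claudin, at -1.58 ± 0.17, and Rhag, the Rh-associated glycoprotein, at -1.46 ± 0.17. The summed level of the list ran from 3902 to 6917 CPM in gluten-free plain and from 9113 to 16810 CPM in control plain libraries, with no gene of the list at 0. With the mean log2 CPM of this list as a covariate, 0 of 7 enzymes were called with plain IDs (306 genes called in all) and 0 of 7 in the difference between forms (1478 genes). That mean itself ran from 7.41 to 8.16 in gluten-free plain and from 8.58 to 9.53 in control plain libraries without overlap, so the list mean and the diet cannot be told apart there.

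Relative to the list mean, Alas2 was the 1 enzyme whose diets did not overlap with plain IDs. Its log2 CPM less the list mean was 1.84 to 2.07 in gluten-free plain libraries, above the 1.41 to 1.79 of all 8 control plain libraries, and averaged 1.96 ± 0.09 and 1.66 ± 0.12 (SD, n = 4 and 8). With the list mean as a covariate the Alas2 diet difference was 0.27 on the log2 scale and was not called (adjusted p = 0.5064 in edgeR). With S IDs the same measure averaged 1.95 ± 0.06 in gluten-free and 2.08 ± 0.23 in control libraries. The control S libraries, at 1.82 to 2.27, also lay above all 8 control plain libraries, so Alas2 separated the ID forms of control too. With the list mean as a covariate, Alas2 was called between those forms of control. Alad, Uros, Urod, Cpox, Ppox and Fech overlapped between the diets with plain IDs on this measure, Urod at -0.09 ± 0.02 in gluten-free and -0.14 ± 0.13 in control libraries. This pattern of Alas2 was chosen after its values were seen. The share of all tested genes whose diets separate on this measure was not computed, so the separation cannot be called unusual.

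**Figure D4:**
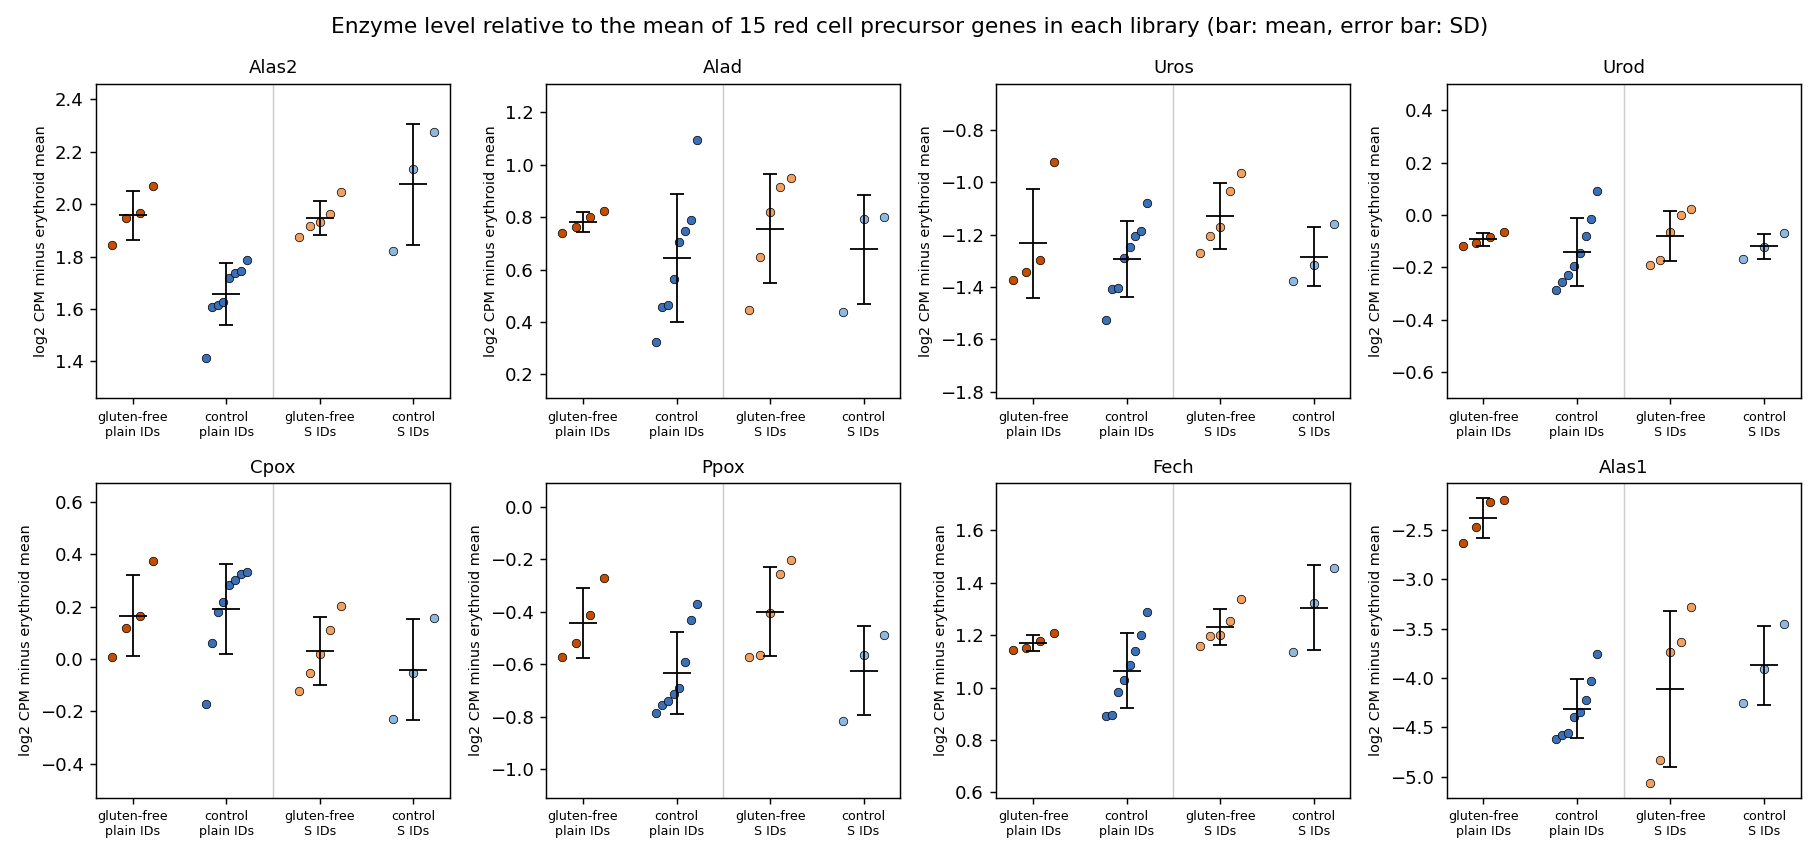
Log2 CPM of each enzyme and Alas1 less the mean log2 CPM of 15 red cell precursor genes, per library, with the mean and SD of each group. With plain IDs the gluten-free libraries lie above the control libraries for Alas2 and Alas1 and overlap them for the other 6 enzymes. For Alas2 the control S libraries also lie above the control plain libraries. The share of all tested genes that separate in this way was not computed.

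Markers of T cells, neutrophils and megakaryocytes rose with plain IDs, where 17.5% of tested genes were called higher. Of T cell genes 8 of 8 rose in gluten-free libraries, of neutrophil genes 9 of 9, of megakaryocyte genes 7 of 7, of mesothelium genes 2 of 6 (6 with library total scaling) and of B cell genes 1 of 8 (7 with library total scaling). The summed neutrophil list ran from 2893 to 7558 CPM in gluten-free plain and from 705 to 2227 CPM in control plain libraries, and the summed T cell list from 508 to 626 CPM and from 278 to 497 CPM. Of 6 liver genes only 2 passed the filter on low counts. Red pulp macrophage, adipocyte and liver lists had 0 called, though 2 of 8 red pulp macrophage genes were called higher with library total scaling. With S IDs no gene of these lists was called. There 9 of 9 neutrophil and 7 of 7 megakaryocyte genes lay below 0, and 7 of 8 T cell genes above 0. The difference between forms was called lower for 9 of 9 neutrophil, 6 of 7 megakaryocyte and 0 of 8 T cell genes. That held for 9.36% of tested genes. Within control 6 of 7 megakaryocyte genes were called higher with S IDs, where 1.94% of tested genes were called. The part of these cell types in the result for the enzymes was not tested.

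Alas1, the form of the first enzyme that all tissues use, went the other way from Alas2. It had 36.9, 46.3, 47.4 and 51.3 CPM in gluten-free plain libraries, against a lowest of 24.9, a median of 29.7 and a highest of 36.4 CPM in control plain libraries. It rose, by 0.59 ± 0.11 on the log2 scale (SE; edgeR adjusted p = 0.0005705), and its gluten-free libraries all lay above control, as for 6.83% of tested genes. With library total scaling it was 0.87, where the median of all tested genes was 0.308, against 0.035 with TMM. With S IDs it had 0.85 of the control level and was not called (adjusted p = 0.9497 in edgeR), and its diet difference differed between forms (-0.82 ± 0.23, adjusted p = 0.01573 in edgeR), where 9.36% of tested genes were called in that direction. For each 1000 Alas2 counts there were 50.2 ± 9.70 Alas1 counts in gluten-free plain, 16.6 ± 8.01 in gluten-free S, 16.2 ± 3.26 in control plain and 17.2 ± 7.66 in control S libraries (SD). Hmox1, the haem-degrading oxygenase, had 190 to 276 CPM in gluten-free plain and 144 to 316 CPM in control plain libraries, which overlap, and was not called (adjusted p = 0.2851 in edgeR).

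The genes that feed the pathway fell with it. Of 18 tested genes for mitochondrial supply and transport 16 fell with plain IDs and 0 rose, where 22.1% of all tested genes were called lower and 17.5% higher. Tmem14c, which helps move the ring precursor into the mitochondrion, averaged 101 ± 9.17 CPM in gluten-free and 268 ± 31.2 CPM in control libraries (log2 fold change -1.41 ± 0.11), and Slc25a38, the glycine importer that supplies Alas2, had -1.21 ± 0.14. Abcb10, a mitochondrial transporter of red cells, had -1.33 ± 0.16. The exceptions were Slc25a28, the iron importer of other tissues, and Pgrmc1, at 0.04 and 0.02, neither called.

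Among 11 genes of iron uptake and sensing 7 fell and 1 rose (5 fell with upper quartile or library total scaling), against 22.1% and 17.5% of all tested genes. Tfrc, the transferrin receptor, averaged 592 ± 68.0 CPM in gluten-free and 1560 ± 299 CPM in control plain libraries (log2 fold change -1.40 ± 0.16), Steap3, the endosomal iron reductase, had -1.37 ± 0.17, and Slc11a2, the iron transporter of the endosome, had -1.14 ± 0.13. Fbxl5, which senses iron and targets the iron regulatory protein IRP2 for breakdown, was the 1 that rose, with 0.27 ± 0.10 (adjusted p = 0.0442 in edgeR). Ireb2, the gene of IRP2, and Aco1 were not called, and these values are RNA levels that do not measure protein breakdown.

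Of 9 genes for haem breakdown and export 4 fell and 0 rose, and the counts of this list and of the regulators and globins stand against 22.1% of all tested genes called lower. Abcg2, a porphyrin and drug exporter, had a log2 fold change of -1.39 ± 0.16, Blvrb, a biliverdin reductase abundant in red cells, had -1.33 ± 0.17, and Slc48a1, a haem transporter, had -0.69 ± 0.13. Of 10 regulators all fell (8 with library total scaling): Klf1, a master factor of red cell genes, averaged 193 ± 21.2 CPM in gluten-free and 535 ± 135 CPM in control libraries (log2 fold change -1.47 ± 0.19), Tal1 had -1.14 ± 0.16 and Lmo2 had -0.92 ± 0.13. Eif2ak1, the haem-sensing kinase that slows globin translation when haem is short, had -0.99 ± 0.15. Of 9 tested globin genes 6 fell and 0 rose (3 fell with library total scaling). Hbb-bs averaged 24498 ± 3996 CPM in gluten-free and 44750 ± 10954 CPM in control libraries (log2 fold change -0.87 ± 0.20), closer to 0 than the estimate of any of the 7 enzymes. Hbq1b had -1.14 ± 0.21 and Hbb-bt -0.89 ± 0.24. Near-identical globin genes share reads, so their split is uncertain.

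**Figure D5:**
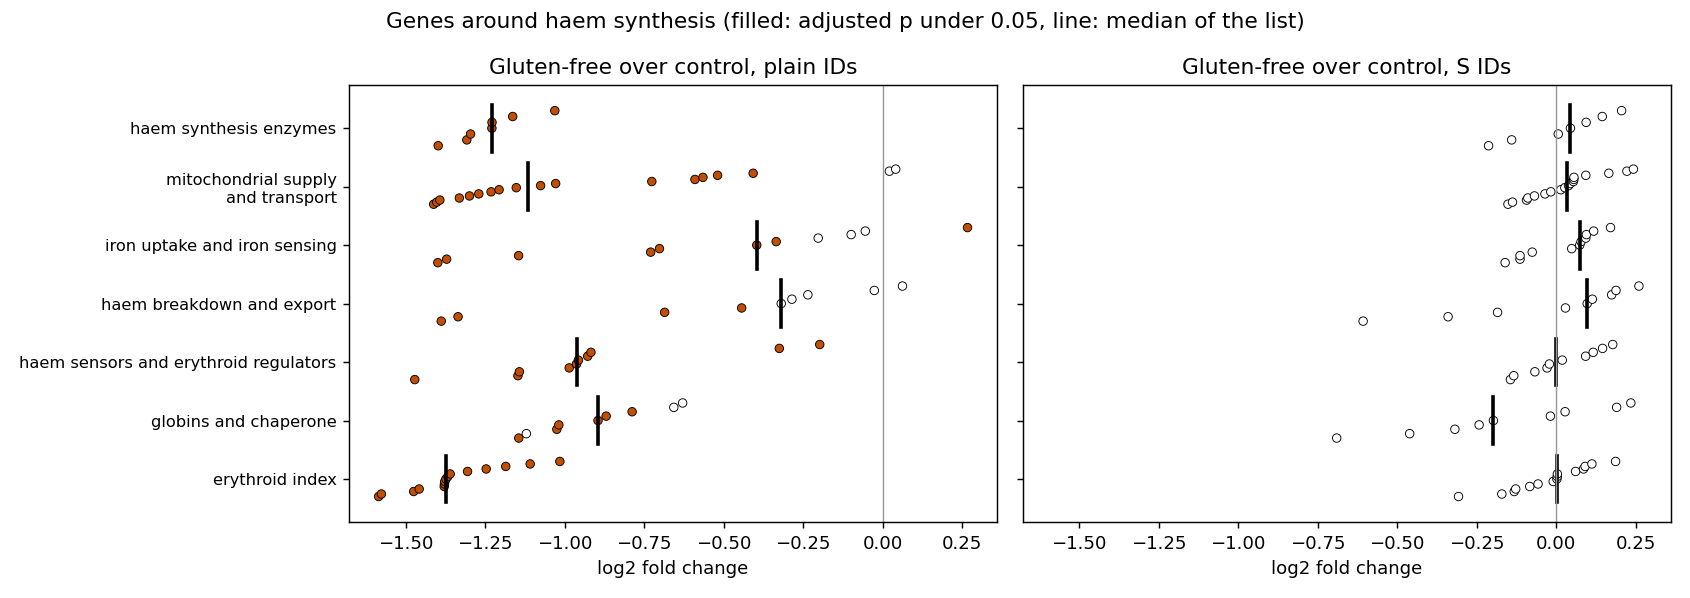
Log2 fold change of gluten-free over control for each gene of 7 lists around haem synthesis, with plain IDs and with S IDs on 1 shared axis (filled where the adjusted p was under 0.05, line at the median). With plain IDs the enzyme list has a median of -1.23 and all 7 filled, and with S IDs no point of any list is filled.

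Over all 20 libraries the enzymes differed in which genes they resembled most. Likeness was the root mean square difference of log2 CPM, each gene centred on its own mean, and it is a description with no test over libraries that share depth and cell makeup. Leaving the 7 enzymes themselves out, Alas2 was nearest to Specc1 (0.092), Aldh1a1 (0.102), Eif2ak1 (0.107), Tfdp2 (0.119) and Vopp1 (0.124), against a median of 0.74 over all genes. Among the enzymes it was closest to Fech (0.112), the last step, and farthest from Cpox (0.333). Fech was nearest to Slc4a1, the band 3 anion exchanger of red cells (0.083), Specc1 and Fam213a. Alad was nearest to Txnrd2 (0.084), Birc5 and Dmtn, Uros to Cd24a (0.096), Car2 and Slc43a1, and Ppox to Orc6, a subunit of the replication origin complex (0.074), Slbp and Pigq. Cpox was nearest to Asns, asparagine synthetase (0.093), Rrm1, a subunit of ribonucleotide reductase (0.123), and Polq, a DNA polymerase (0.126). Of the genes reported here, those nearest to Urod were Tspan33 (0.085) and Fam210b (0.088), a mitochondrial protein of red cell precursors. The SD of log2 CPM over the 20 libraries was alike among the 7, from 0.563 for Ppox to 0.643 for Fech.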

How the data were processed

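The authors deposited raw counts per gene, whole numbers with no normalization, with a gene length that served here to give levels per kilobase. Per the submitters' processing notes the tools were CASAVA, HISAT2 2.0.5 and featureCounts 1.5.0 on GRCm38 (mm10); the annotation release, strand setting and handling of multimapping reads are not given in the sources used here. Of 54532 genes 33089 had a count and 18362 passed edgeR's filterByExpr over the 4 groups of diet and ID form. Counts were tested with edgeR 4.0.16 (R 4.3.3, TMM, quasi-likelihood, two-sided), within each form on that form's libraries alone, over both with a term for the form, and as an interaction. Standard errors were computed from the fold change and its F statistic, and 95% intervals use it with Student's t at the residual degrees of freedom. Log2 CPM used a prior count of 2. The test was also run on simulated counts with the same spread for every gene, unlike these data, so no conclusion is drawn from that run. Alternatives were other scalings and filters, DESeq2 1.42.0, limma-voom (limma 3.58.1), the red cell precursor list as a covariate, and leaving out each library; scalings for Alas1 and the lists were added after the data were seen.

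The members and lists were chosen with earlier results of these data known. Named were the 7 enzymes, Alas1 and Hmox1, the 3 genes with the smallest p with plain IDs in each of the 5 lists around the pathway and in the red cell precursor list, and the nearest genes by likeness outside the 7 (5 for Alas2 and 3 for the others, less any gene not reported here); Fbxl5, Eif2ak1 in its list, Slc25a28, Pgrmc1, Trim10, Trim58, Aco1 and Ireb2 were chosen after their values were seen. In 47 pairs of libraries of 1 group, chi-square per degree of freedom of their counts was 6.103 or more, so none was counted as a duplicate. Some genes are not reported here.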

Additional observations from a re-analysis of the deposited data

Results flagged for a closer look

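The diet difference was not the same with S IDs as with plain IDs, by the interaction test, for 6 of the 7 enzymes. The difference of log2 fold changes, S minus plain, was 1.27 for Alad, 1.45 for Uros, 1.30 for Urod, 1.49 for Cpox, 1.37 for Ppox and 1.09 for Fech, all called by edgeR's quasi-likelihood test. What the S stands for is not stated in the labels, so cohort and batch cannot be told apart.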

How the results depend on the processing

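All 7 enzymes stayed called lower with plain IDs, and higher in S than plain gluten-free libraries, under RLE, upper quartile and library total scaling, both other filters, DESeq2, limma-voom with and without quality weights, the fit of 4 group means and each left-out library. Library total scaling moved the median of all genes to 0.308 with plain IDs, where the enzymes ran from -1.11 to -0.75, to -0.302 in the difference between forms (2654 genes lower and 1294 higher, against 1718 and 2825 with TMM) and to -0.372 within gluten-free (5786 lower and 1628 higher, against 2218 and 3571). With the red cell precursor mean as a covariate, 0 enzymes were called with plain IDs, 0 in the difference between forms and 0 within gluten-free, and 1 (Alas2) within control; the cause was not tested. Over both forms 7 enzymes were called in DESeq2 and 7 with quality weights, and within control 2 with quality weights (5249 genes called in all, against 356 in edgeR). Leaving out 1 library gave 0 to 7 enzymes over both forms, 5 to 7 in the difference between forms and 0 to 1 within control. The genes called in all were then 0 to 3695, 3213 to 5419 and 0 to 937.

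Signs turned only in values that were not called under the alternative. With the covariate the log2 values were 0.27 for Alas2, 0.19 for Alad and 0.048 for Urod with plain IDs. Over both forms they were 0.023 for Alas2, 0.013 for Alad, 0.046 for Uros, 0.017 for Urod, 0.016 for Cpox and 0.095 for Ppox. In the difference between forms they were -0.53 for Alas2 and -0.16 for Fech, within gluten-free -0.019 for Alas2 and -0.0975 for Cpox, and within control 0.020 for Alad and 0.015 for Urod. With S IDs Urod had -0.021 with upper quartile scaling and -1.79e-05 with the 1 CPM filter, and quality weights gave -0.16 for Alad, -0.043 for Uros, -0.17 for Urod and -0.00108 for Cpox. Within control they gave 0.11 for Alad, 0.055 for Urod and 0.078 for Ppox. Leaving out 1 library with S IDs gave -0.50 to 0.11 for Alas2, -0.12 to 0.17 for Alad, -0.039 to 0.30 for Uros, -0.20 to 0.19 for Urod, -0.17 to 0.31 for Cpox and -0.40 to 0.16 for Fech. Within control it gave -0.17 to 0.14 for Alad, -0.21 to 0.13 for Uros, -0.19 to 0.20 for Urod, -0.14 to 0.13 for Ppox and -0.046 to 0.53 for Fech.

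Under library total scaling Alas1 stayed higher with plain IDs, and 15 supply and transport genes fell and 2 rose, 8 regulators fell, 3 globin genes fell and 3 genes of breakdown and export fell. Groups shared 4 ID numbers, and the correlations of same-numbered deviations were -0.172, -0.197, 0.094 and 0.378. Differently numbered libraries were not compared in this way, so whether the numbers pair the libraries cannot be told. The replicate block over these 8 libraries called 0 enzymes, with log2 values from -0.51 (Ppox) to -0.67 (Urod). The 3 control S libraries limit what can be said of the S IDs.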
